A study of Drosophila mojavensis with 127 samples.

Results

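The 60 transcripts described here were those with the lowest levels in Baja California flies relative to mainland flies in both sexes of Drosophila mojavensis, out of 14528 transcripts in the table. For each transcript the region difference was the mean of the Punta Prieta and San Quintin groups minus the mean of the Punta Onah and Organ Pipe National Monument groups, on the log2 scale and in each sex. Transcripts whose male and female means lay 3 or more log2 units apart were not eligible, which left 13392, and the 60 with the lowest value of the weaker region difference were taken. Identifiers carry the FBtr prefix of FlyBase transcripts. None could be paired with a gene name, so no function is given to any member.

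The series was made to map how geography and host plant relate to gene expression in both sexes. Flies were wild-type laboratory stocks, named PO07 (Punta Onah, Sonora), OPNM08 (Organ Pipe National Monument, Arizona), PP08 (Punta Prieta, Baja California) and SQ08 (San Quintin, Baja California) in the labels. Each stock was raised on fermenting pitaya agria (Stenocereus gummosus) or organ pipe cactus (Stenocereus thurberi), and mated and nonmated males and females were sampled. This gave 32 groups and 127 single-colour arrays of total RNA. Counted by replicate number these were 123 replicates (62 female, 61 male), with 27 groups of 4 and 5 of 3. The labels give no tissue and no age. Each population is 1 stock and each region 2 stocks, so region and stock cannot be told apart.

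Drosophila mojavensis breeds in the rotting tissue of columnar cacti, and yeasts, bacteria and plant compounds in the rot are its food and its chemical environment. Baja California populations use mainly pitaya agria, and populations of mainland Sonora and Arizona mainly organ pipe cactus. The species is a model of host-plant adaptation and of early sexual isolation between populations, in which the cactus that larvae grew up on alters the hydrocarbons on the adult cuticle and mate choice.

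Values are log2 expression levels made by the authors and lay between 4.64 and 15.78, with array medians from 10.15 to 10.64. The descriptions of 5 female samples also speak of males; the titles and the sex entry give them as female and were followed. Their index of male-biased minus female-biased transcripts was -4.64 to -3.80, within the female range of -4.90 to -3.26. A male array from Organ Pipe National Monument (mated, agria, replicate 1) lay between the sexes, with an index of 1.06 against a male median of 4.74. The next, from Punta Prieta (nonmated, organ pipe, replicate 1), stood at 2.80. Leaving out both changed the counts of members called in the comparisons between populations, hosts and mating states by at most 2. Whether replicates are separate cultures is not given in the labels. A p-value here thus reflects the spread between these samples alone, which may be technical.

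In females the members were lower in Baja California by a median of 0.78 on the log2 scale, or 1.72-fold, with differences from -2.50 to -0.54. In males the median difference was -0.90, or 1.87-fold, with a range from -2.23 to -0.55. Over all transcripts the medians were -0.02 and -0.03. A reduction of at least 2-fold was present in 17 members in females, 24 in males and 10 in both. These differences chose the members and are given as a description, with no test. By the same fit 60 of the 60 were called lower in each sex, where 15.4% of all transcripts were called lower in females and 26.8% in males. In bulk RNA, fewer cells of a type and less RNA per cell cannot be told apart.

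**Figure D1:**
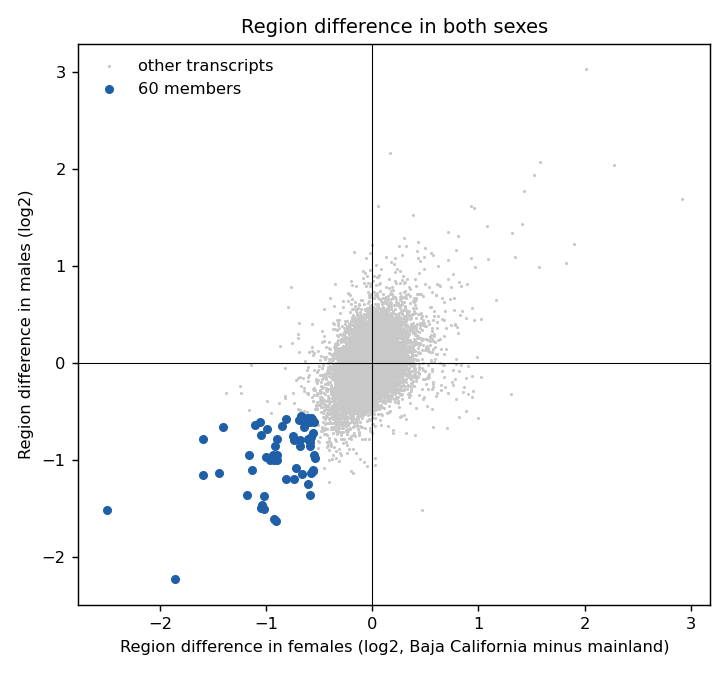
Region difference (log2, Baja California minus mainland) in males against that in females for every transcript (grey) and for the 60 members (coloured). The members fill the lower left corner, at -0.54 or below in females and -0.55 or below in males, and FBtr0172679 is lowest in males at -2.23.

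The limit fell in a continuous run of transcripts. FBtr0172428 (-0.67 in females, -0.55 in males) and FBtr0164599 (-0.54 and -0.98) were the last members inside. FBtr0165236 (-0.56 and -0.54) and FBtr0164960 (-0.65 and -0.53) were the first outside. Without Punta Onah the male differences of FBtr0164599 and FBtr0164960 were -0.61 and -1.12.

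The clearest separation between regions belonged to FBtr0172679. Punta Onah females had lowest, median and highest values of 9.97, 10.94 and 11.84, and Organ Pipe National Monument females 10.24, 11.30 and 11.68 (n = 16 each). Punta Prieta females had 8.50, 9.14 and 9.75, and those of San Quintin 8.61, 9.19 and 9.83 (n = 15 each). Every Baja California female replicate was therefore below every mainland one. Among males the values were 11.25, 11.94 and 12.59 for Punta Onah, with 11.60, 12.36 and 12.82 for Organ Pipe National Monument (n = 16 each). Punta Prieta males had 8.97, 10.00 and 10.29 (n = 15) and San Quintin males 9.49, 9.89 and 10.51 (n = 14). The gap was wider than in females and again no replicate crossed it. The region difference was -1.86 ± 0.08 (SE) in females and -2.23 ± 0.09 in males.

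FBtr0163979 was the brightest member, with a mean of 12.70 over all groups. Mainland females had 12.46, 12.91 and 13.53 (Punta Onah) and 12.79, 13.30 and 13.59 (Organ Pipe National Monument). Baja California females had 9.08, 12.12 and 12.44 (Punta Prieta) and 11.29, 11.95 and 12.46 (San Quintin). The regions did not overlap in females, although the nearest replicates both round to 12.46. The value of 9.08 came from 1 nonmated Punta Prieta replicate on organ pipe, whose companions read 11.97 and 12.26. In males the Baja California values reached 12.94 and the lowest mainland value was 12.61, so the ranges met.

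FBtr0171700 behaved differently in the sexes. Male values were 8.38, 8.85 and 9.41 (Punta Onah) and 8.92, 9.39 and 9.89 (Organ Pipe National Monument) on the mainland. They were 7.26, 7.82 and 8.12 (Punta Prieta) and 7.40, 7.90 and 8.26 (San Quintin) in Baja California, with no overlap. Female values were 7.82, 8.06 and 8.66 (Punta Onah), 8.17, 8.66 and 9.34 (Organ Pipe National Monument), 7.27, 7.81 and 8.14 (Punta Prieta) and 7.38, 7.82 and 8.22 (San Quintin). Punta Onah females overlapped both Baja California populations, and Organ Pipe National Monument females overlapped those of San Quintin. The Baja California means were close in the sexes (7.82 ± 0.23 in females, SD, n = 30, and 7.79 ± 0.24 in males, n = 29), and the mainland mean was 8.41 ± 0.43 in females and 9.15 ± 0.38 in males (n = 32 each).

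Complete separation of replicates was present in 3 members in females (FBtr0172679, FBtr0163979 and FBtr0169038) and 2 in males (FBtr0172679 and FBtr0171700), and in both sexes only in FBtr0172679. FBtr0169038 was singled out after its values were seen. Its female values ranged from 8.94 to 10.02 on the mainland and from 7.03 to 8.79 in Baja California, and its male ranges overlapped from 7.79 to 9.75. Among all transcripts 0.0275% were lower in Baja California without overlap in females and 0.0206% in males. The rule favoured such transcripts, so nothing is read from these shares.

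**Figure D2:**
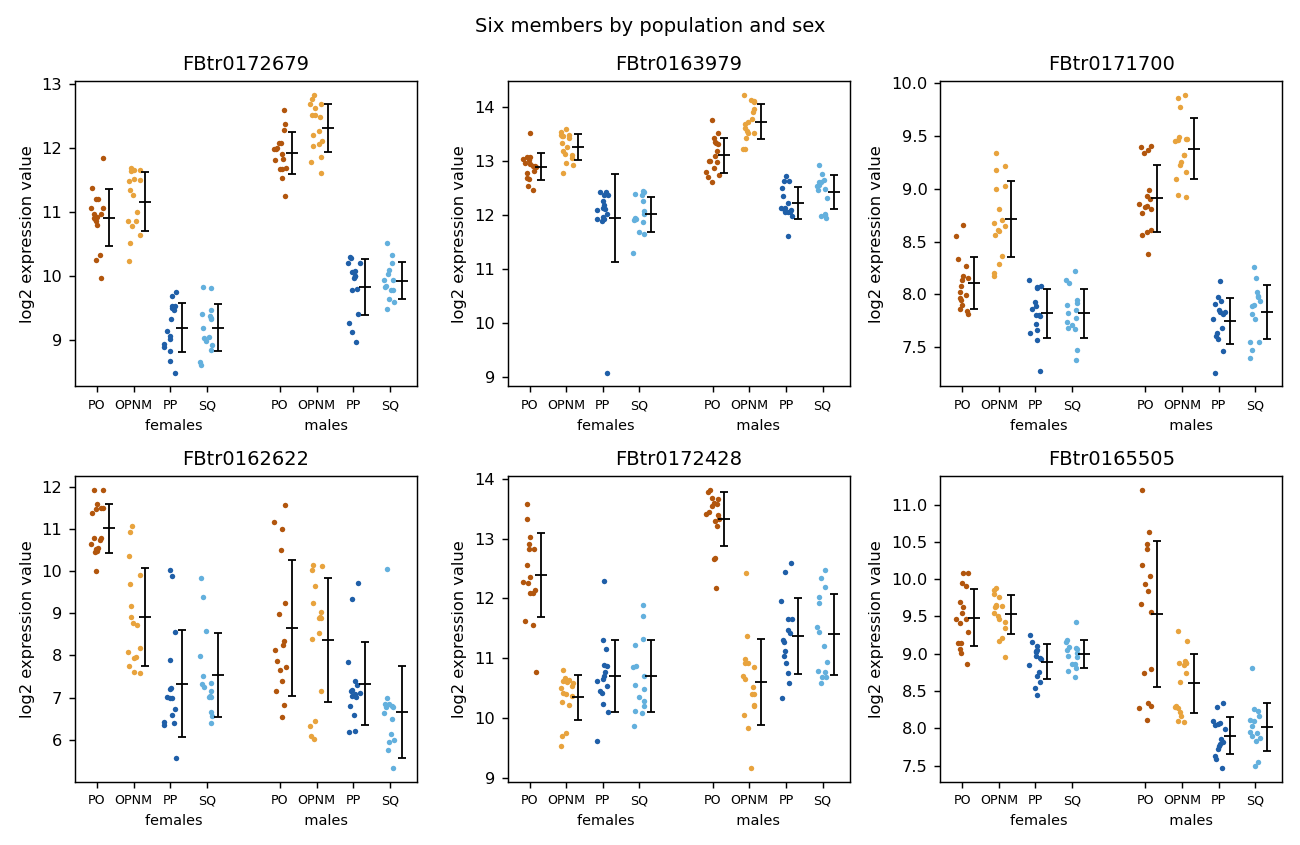
Log2 expression value of 6 members in every replicate, by population (PO, Punta Onah; OPNM, Organ Pipe National Monument; PP, Punta Prieta; SQ, San Quintin) and sex, with the mean and SD as bars. FBtr0172679 has no replicate in common between the regions in either sex, FBtr0171700 none in males, and FBtr0172428 is high in Punta Onah alone.

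FBtr0162622 had the largest female difference and the widest spread. Female means were 11.01 ± 0.59 (SD, n = 16) for Punta Onah and 8.91 ± 1.17 (n = 16) for Organ Pipe National Monument, then 7.33 ± 1.27 for Punta Prieta and 7.54 ± 1.00 for San Quintin (n = 15 each). Male means were 8.65 ± 1.61, 8.36 ± 1.48, 7.33 ± 0.99 and 6.67 ± 1.09 in the same order. Values ran from 5.57 to 11.91 in females and from 5.34 to 11.57 in males. Punta Onah females had the highest mean, but their lowest value, 9.99, was below the highest of Organ Pipe National Monument (11.06) and Punta Prieta females (10.01). The male populations overlapped broadly. The region difference was -2.50 ± 0.24 (SE) in females, -1.45 without Punta Onah, and -1.52 ± 0.24 in males.

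FBtr0172275 was among the lowest in males, with a difference of -1.63 ± 0.12 against -0.91 ± 0.12 in females. Its male values were 8.48, 10.43 and 12.32 in Punta Onah (n = 16), 7.66, 8.92 and 9.62 in Organ Pipe National Monument (n = 16), 7.40, 7.83 and 8.36 in Punta Prieta (n = 15) and 7.38, 8.00 and 8.93 in San Quintin (n = 14). Punta Onah males were highest and most variable. Without Punta Onah the male difference was -0.82.

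The order of the populations was shared by most members. Both Baja California means were below both mainland means in 59 members in females, 57 in males and 57 in both sexes, where the shares of all transcripts were 28.6%, 21.2% and 11.5%. The exceptions, named after their values were seen, were FBtr0172428 in both sexes and FBtr0174521 and FBtr0173457 in males. Split further by sex, host and mating status, the region difference was below 0 in each of 8 strata for 59 members, against 7.74% of all transcripts. The remaining one, FBtr0167783, was at 0.01 in mated females on organ pipe. The rule fixes much of this order.

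**Figure D3:**
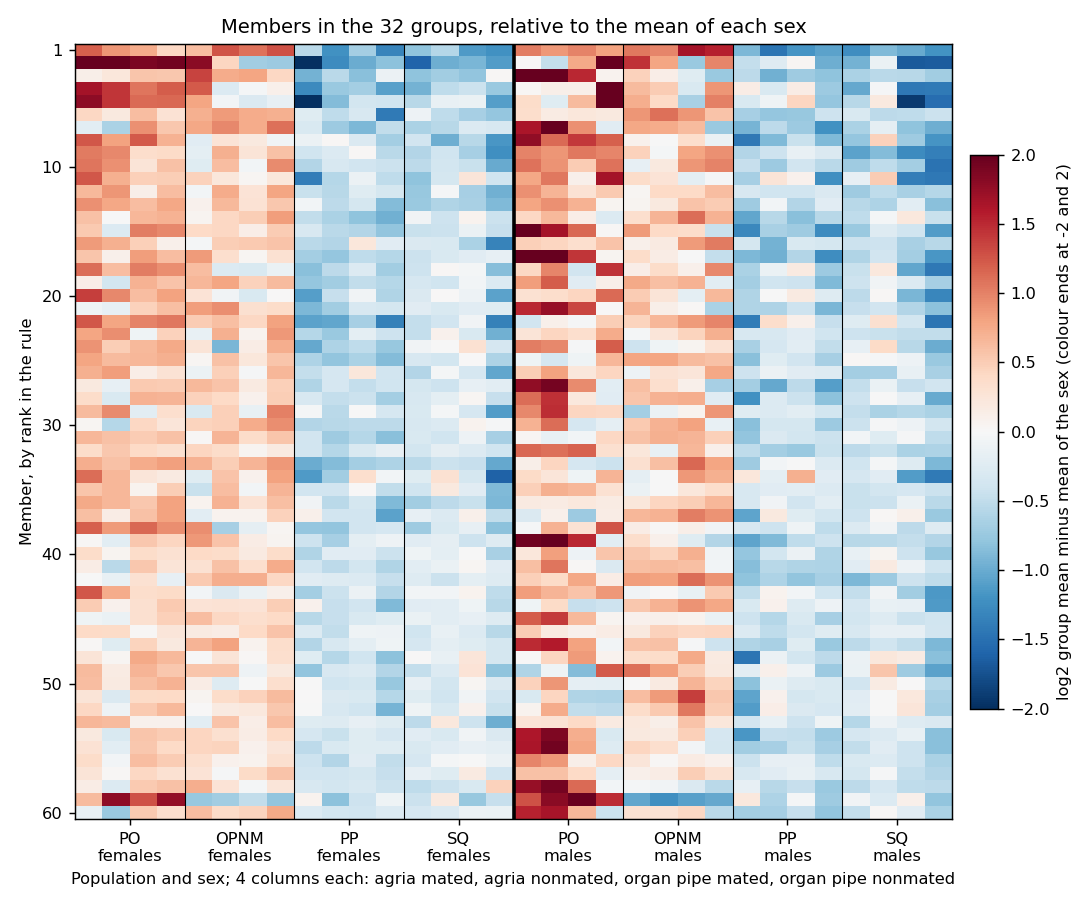
Group mean of each member minus the mean of its sex (log2; colour ends at -2 and 2), with members in rows and the 32 groups in columns. The mainland columns are mostly above and the Baja California columns mostly below the mean of the sex, and Punta Onah males on agria hold many of the highest values.

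FBtr0172428 owed its place to 1 population. Among females its lowest, median and highest values were 10.77, 12.31 and 13.58 in Punta Onah (n = 16), 9.52, 10.46 and 10.80 in Organ Pipe National Monument (n = 16), 9.62, 10.64 and 12.30 in Punta Prieta (n = 15) and 9.87, 10.54 and 11.90 in San Quintin (n = 15). In males they were 12.17, 13.43 and 13.81, then 9.17, 10.58 and 12.42, then 10.33, 11.31 and 12.59, and 10.58, 11.32 and 12.48, in the same order. Punta Onah was highest in both sexes and Organ Pipe National Monument lowest. Without Punta Onah the region difference turned to 0.35 in females and 0.82 in males, so this member was not lower in Baja California than in both mainland stocks.

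Single pairs of stocks are parts of the rule's contrast, and their counts are a description. In females 59 members were called lower in Punta Prieta than in Punta Onah (14.8% of all transcripts), 53 lower than in Organ Pipe National Monument (8.73%), and 55 (8.2%) and 47 (5.55%) were lower in San Quintin than in the same stocks. In males the counts were 52 (30.4%) and 52 (23.9%) for Punta Prieta and 53 (29.6%) and 56 (15%) for San Quintin. FBtr0172428 alone was called higher, against Organ Pipe National Monument in males, by 0.80 ± 0.20 (SE) for Punta Prieta and 0.84 ± 0.21 for San Quintin, where 16.4% and 13.3% of all transcripts were called higher. The 4 pairs share stocks, so their counts are not independent.

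With the region difference recomputed without 1 stock, 34 of the 60 stayed among the 60 lowest when Punta Onah was left out and 39 when Organ Pipe National Monument was.

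Members were neither strongly male-biased nor strongly female-biased. Male minus female differences ran from -0.96 to 1.01 with a median of -0.20, and 24 were above 0 and 36 below, although the limit allowed sizes up to 3; 63.6% of all transcripts lay in that narrower range. FBtr0163796 (1.01 ± 0.06, SE) and FBtr0172624 (0.98 ± 0.06) were highest in males relative to females, and FBtr0162622 (-0.96 ± 0.17) and FBtr0167921 (-0.91 ± 0.07) lowest. By the fit 21 were called higher in males (36.9% of all transcripts) and 32 lower (56.1%). The rule limited this contrast, so these are descriptions too.

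The region difference was not of equal size in the sexes for every member. It was called more negative in males for 15 (12.7% of all transcripts) and less negative for 5 (11.5%), values that are made of the contrasts the rule used and carry no test here. The differences of FBtr0171700 (-0.77 ± 0.09, SE) and FBtr0172275 (-0.72 ± 0.16) were the most negative. The latter was 0.02 without Punta Onah. FBtr0162622 (0.98 ± 0.34) and FBtr0164865 (0.82 ± 0.21) were at the other end. FBtr0164865 averaged 11.67 ± 0.51 on the mainland and 10.07 ± 0.72 in Baja California in females (SD, n = 32 and 30), and 11.98 ± 0.65 and 11.23 ± 0.89 in males (n = 32 and 29), a smaller gap with more overlap. Without Punta Onah 3 members were called here in place of 20.

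The members spanned most of the range of expression. Their mean levels ran from 6.37 to 12.70 with a median of 10.22, against 10.55 for all transcripts, and 22 were below the lower quartile of all transcripts, 9.19. FBtr0163979 and FBtr0166086 were brightest. FBtr0175351 and FBtr0172324 were dimmest; in females the Baja California means of these dim members were 6.06 ± 0.45 and 5.89 ± 0.60 (SD, n = 30), under the lowest 1% of all values (6.47). In males the Baja California means of 2 members were under 6.47, among them that of FBtr0166936 at 6.34 ± 0.31 (SD, n = 29). Whether those levels stood above background was not tested.

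Replicates of a group varied more in these members than in most transcripts. The median SD within groups was 0.425, against 0.276 over all transcripts, and 58 of the 60 were above the latter value. The rule can favour transcripts whose replicates vary more, so nothing is read from this spread.

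Replicates of a group were also compared between members. The residuals from the group means had a median correlation of 0.175 over 1770 pairs of members, against -0.00225 over all pairs of transcripts, and 124 pairs (7.01%) reached r of 0.7, involving 39 members, where 1.42% of all pairs did. Transcripts whose replicates vary together can also be chosen together, so these shares are a description. The closest pair was FBtr0164947 and FBtr0161003 with Pearson's r of 0.951 and Spearman's rho of 0.943 (n = 123 replicates). FBtr0173457 and FBtr0161003 followed with 0.923 and 0.921. For both pairs the permutation p within groups was 1e-05, the smallest that 100000 permutations can give, or 4.425e-05 for r and 4.275e-05 for rho after adjustment over the 1770 pairs. Without the 2 replicates farthest from the median r was 0.946 and 0.916, and r was 0.964 and 0.938 in females and 0.939 and 0.916 in males. The lowest correlation, between FBtr0165898 and FBtr0168357, was -0.518 with a rho of -0.475 (permutation p 2e-05 and 6e-05, adjusted 7.919e-05 and 0.0002128). It was -0.525 without the 2 farthest replicates, -0.791 in females and -0.147 in males.

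The means that the rule used average 2 stocks, so a member can enter through 1 high or low stock. Differences between stocks of a region are therefore a description, with no test. By the fit 6 members were higher in females of Organ Pipe National Monument than of Punta Onah and 10 lower, where 2.2% and 2.6% of all transcripts passed. FBtr0171700 was higher by 0.60 ± 0.09 (SE) and FBtr0161591 by 0.62 ± 0.14. The differences of FBtr0172428 (-2.05 ± 0.20) and FBtr0162622 (-2.10 ± 0.33) were of the other sign. Without replicate 3, 9 were called, and FBtr0161591 was not among them.

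In males the Organ Pipe National Monument stock was higher in 14 members and lower in 27, against 26.3% and 31.8% of all transcripts. FBtr0173457 was higher by 1.12 ± 0.18 and FBtr0162021 by 0.66 ± 0.13. FBtr0172428, chosen through its Punta Onah level, differed by -2.73 ± 0.20 and FBtr0165626 by -1.44 ± 0.12. The last averaged 8.83 ± 1.07 in Punta Onah males and 7.39 ± 0.49 in Organ Pipe National Monument males (SD, n = 16 each), with 6.79 ± 0.46 for Punta Prieta (n = 15) and 6.94 ± 0.16 for San Quintin males (n = 14).

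The Baja California stocks were compared as San Quintin minus Punta Prieta. In females limma called 0 members, where 0.564% of all transcripts were called higher and 1.39% lower. An unadjusted p under 0.05 was reached by 16 members (26.7%) and by 14.1% of all transcripts. FBtr0162021 came closest to a call (0.40 ± 0.13, SE), and without replicate 4 it was at 0.59 and 1 of 7 called. In males 3 members were called higher (7.86%) and 3 lower (6.49%), and both directions together held 14.4% of all transcripts. FBtr0173133 was higher in San Quintin by 0.52 ± 0.13 and FBtr0164801 by 0.55 ± 0.19. FBtr0166086 differed by -0.77 ± 0.16 and FBtr0169031 by -0.90 ± 0.21. FBtr0166086 was at 10.10, 11.33 and 12.02 in San Quintin males and at 11.13, 12.02 and 12.48 in Punta Prieta males, with wide overlap. FBtr0164801 was not called without any 1 of the replicate numbers nor FBtr0169031 without replicate 4, and the count was 3 without replicate 2, 3 without replicate 3 and 2 without replicate 4.

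Host plant was compared as organ pipe minus agria, averaged over populations and mating states. The rule averaged over hosts and mating states, but a member can still enter through 1 high mainland group, which limits the tests below. In males 19 members were lower on organ pipe and 0 higher, where 1.31% and 0.688% of all transcripts passed. FBtr0165505 fell by 0.56 ± 0.07 (SE, limma adjusted p 2.25e-07) and FBtr0161422 by 0.79 ± 0.12 (1.73e-05). In females limma called 0 members and 0% of transcripts, with 8 members (13.3%) and 8.96% of transcripts at an unadjusted p under 0.05. FBtr0161591 came closest (0.33 ± 0.10, adjusted p 0.260).

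The male host count fell without Punta Onah, the only stock left out of a fit. Whether the fall came from that stock or from fewer arrays was not tested. Without that stock 2 members were called, and FBtr0165505 and FBtr0161422 stood at -0.24 (adjusted p 0.17) and -0.52 (0.12). The count was 7 without replicate 2, 11 without replicate 3 and 12 without replicate 4, with none higher in any of these fits. The median over all members in males was -0.09, against 0.00 over all transcripts.

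FBtr0165505 shows the pattern in single replicates. In Punta Onah males on agria its values were 10.48, 9.85, 10.04 and 10.19 when mated and 11.20, 10.40, 10.64 and 9.56 when nonmated. On organ pipe they were 9.67, 9.93, 8.80 and 8.74 when mated and 8.12, 8.28, 8.34 and 8.30 when nonmated. Nonmated males on organ pipe were below all others, and mated males on organ pipe fell into a higher and a lower pair. The host difference in males was -1.52 ± 0.14 for Punta Onah (adjusted p 7.10e-15) and -0.58 ± 0.14 for Organ Pipe National Monument (0.00359). It was 0.12 ± 0.15 for Punta Prieta (1.0) and -0.26 ± 0.15 for San Quintin (0.307).

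The variation of the host difference among populations was tested directly. In males it passed for 38 members, against 44.4% of all transcripts. The host difference of FBtr0165505 ranged over 1.65 among the 4 populations (adjusted p 3.24e-09) and that of FBtr0165626 over 1.88 (2.37e-08). In females it passed for 15 members, against 8.69%, with a range of 1.19 for FBtr0166936 (0.00122) and 2.07 for FBtr0169031 (0.00146). The male count was 6 without Punta Onah and 23 without replicate 3, and the female count was 5 without Punta Onah and between 1 and 8 without each replicate number, with 1 and FBtr0169031 at 0.077 without replicate 3.

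Within Punta Onah males 27 members were lower on organ pipe and 5 higher, where 20.2% and 16.7% of all transcripts passed. FBtr0162080 fell by 1.53 ± 0.18 (adjusted p 4.14e-11), next to FBtr0165505 above. FBtr0162622 rose by 2.27 ± 0.47 (5.66e-05) and FBtr0172324 by 1.32 ± 0.32 (6.40e-04). The rises came from nonmated males: FBtr0172324 read 10.06, 9.55, 9.75 and 9.90 in nonmated males on organ pipe and between 6.91 and 7.62 in the other Punta Onah male replicates. FBtr0162622 read 10.50, 11.17, 11.00 and 11.57 there and between 6.55 and 9.24 elsewhere in that stock's males.

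In Organ Pipe National Monument males 7 members were higher on organ pipe (4.71% of all transcripts) and 8 lower (7.38%). FBtr0175016 rose by 0.92 ± 0.21 (adjusted p 0.00185) and FBtr0173355 by 0.81 ± 0.21 (0.00653), and FBtr0166521 fell by 0.80 ± 0.18 (0.00160) and FBtr0166936 by 0.71 ± 0.16 (0.00202). Only 2 were called without replicate 2 and 1 without replicate 3, and of these named transcripts FBtr0175016 kept its call without replicate 2 and FBtr0166936 without replicate 3. In San Quintin males 5 members fell (2.46%) and 0 rose (2.4%), with 0 called without replicate 1 and 1 without replicate 3. FBtr0165468 fell by 1.58 ± 0.29 (9.66e-04; 0.051 without replicate 1), with agria values of 8.98, 10.10 and 9.80 in mated and 11.46, 9.89, 10.15 and 9.70 in nonmated males. Its organ pipe values were 8.77, 8.06 and 8.38 in mated and 7.96, 8.68, 8.60 and 8.23 in nonmated males, all below the agria replicates. FBtr0170638 fell by 1.10 ± 0.22 (0.00200; 0.091 without replicate 1 and 0.13 without replicate 3). In Punta Prieta males limma called 0 members and 0% of transcripts, with 1 member (1.67%) and 2.64% of transcripts at an unadjusted p under 0.05 (FBtr0165626, 0.50 ± 0.18, adjusted p 1.0).

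Punta Onah females differed in the other direction. There 9 members were higher on organ pipe (0.95% of all transcripts) and 2 lower (2.78%). FBtr0161422 rose by 1.15 ± 0.24 (adjusted p 0.00263) and FBtr0164599 by 0.87 ± 0.18 (0.00255), and FBtr0174268 fell by 0.67 ± 0.16 (0.00725) and FBtr0163796 by 0.56 ± 0.15 (0.0218). FBtr0161422 read 9.88, 10.63, 9.06 and 9.30 on agria and 11.07, 10.73, 10.87 and 10.70 on organ pipe in mated females. Nonmated females had 9.16, 9.59, 9.06 and 9.41 on agria and 10.64, 10.53, 10.06 and 10.66 on organ pipe. In the males of the stock the order was opposite, with 12.03, 11.00, 11.08 and 11.87 on agria and 11.47, 11.26, 10.06 and 10.33 on organ pipe when mated, and 11.81, 12.19, 12.50 and 12.01 against 9.45, 9.67, 9.40 and 10.00 when nonmated. The count in Punta Onah females was 5 without replicate 2, 1 without replicate 3 and 0 without replicate 4.

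In the other female stocks 2 members passed. Limma called 0 in Organ Pipe National Monument females (0.00688% of all transcripts higher, 0% lower), where FBtr0162622 came closest (-1.83 ± 0.47, adjusted p 0.276). It called 0 in Punta Prieta females (0.0138% higher, 0% lower), where FBtr0169031 came closest (1.05 ± 0.30, 0.163). In each of these stocks 9 members (15%) had an unadjusted p under 0.05, against 7.81% and 10% of all transcripts. In San Quintin females 2 were lower (4.43%) and 0 higher (0.234%). These were FBtr0163796 (-0.54 ± 0.16, 0.0287) and FBtr0169031 (-1.01 ± 0.30, 0.0302), of which neither passed without replicate 3, without replicate 4 or after either other scaling of the arrays. FBtr0169031 thus had opposite signs in the Baja California stocks, with values from 7.74 to 11.18 on agria and from 9.86 to 11.36 on organ pipe in Punta Prieta, and from 9.70 to 11.13 and from 7.75 to 10.07 in San Quintin.

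**Figure D4:**
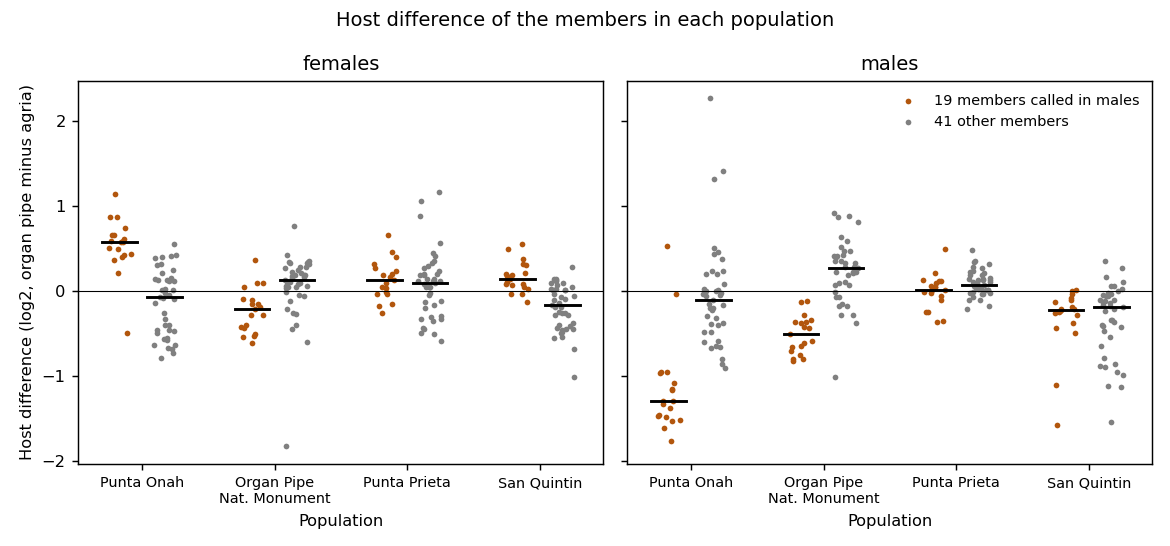
Host difference (log2, organ pipe minus agria) of each member in each population, in females (left) and males (right), for the 19 members called lower on organ pipe in males and the other 41, with the median as a line. In males the 19 sit lowest in Punta Onah, with a median of -1.30, and near 0 in Punta Prieta, and in Punta Onah females their median is 0.58.

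The host difference itself varied with sex in 16 members, all more negative in males, and in 0 the other way, against 1.05% and 0.282% of all transcripts. FBtr0161422 had the difference of -1.12 ± 0.17 (adjusted p 1.05e-05) and FBtr0165505 one of -0.66 ± 0.10 (1.36e-05). None was called without Punta Onah (-0.57, adjusted p 0.58, and -0.23, 0.71, for these 2), and 4 were called without replicate 4.

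The 19 members lower on organ pipe in males were followed as a group, chosen by that test and therefore described without one in males. Their median host difference in males was -1.30 in Punta Onah (17 called lower, 1 higher), -0.51 in Organ Pipe National Monument (8 lower), 0.01 in Punta Prieta (0 called) and -0.22 in San Quintin (2 lower). The other 41 had medians of -0.11, 0.28, 0.07 and -0.18. Females did not enter the choice of these 19 among the members, but Punta Onah females entered the rule that chose the members. A member can enter through 1 high mainland group, so the female values are a description too. In Punta Onah females the median of the 19 was 0.58, and that of the other 41 was -0.07. All 9 members called higher on organ pipe in Punta Onah females were among the 19.

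Averaged over these 19, nonmated Punta Onah males read 10.64, 11.00, 10.26 and 10.51 on agria and 8.92, 9.03, 8.95 and 9.24 on organ pipe. Mated Punta Onah males read 10.87, 10.16, 9.94 and 10.57 on agria and 10.08, 10.16, 9.08 and 9.28 on organ pipe. The nonmated replicates did not overlap between hosts, and the mated ones did. Punta Prieta males had group means of 8.25 ± 0.10 (SD, n = 3) and 8.44 ± 0.29 (n = 4) on agria and 8.55 ± 0.17 and 8.14 ± 0.09 (n = 4 each) on organ pipe, in mated and nonmated males respectively. Punta Onah males on agria were thus the highest of the male groups for this set, and Punta Onah females on agria stood at 9.56 ± 0.36 when mated and 9.14 ± 0.22 when nonmated (n = 4 each), below their organ pipe groups at 9.94 ± 0.11 and 9.84 ± 0.14.

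**Figure D5:**
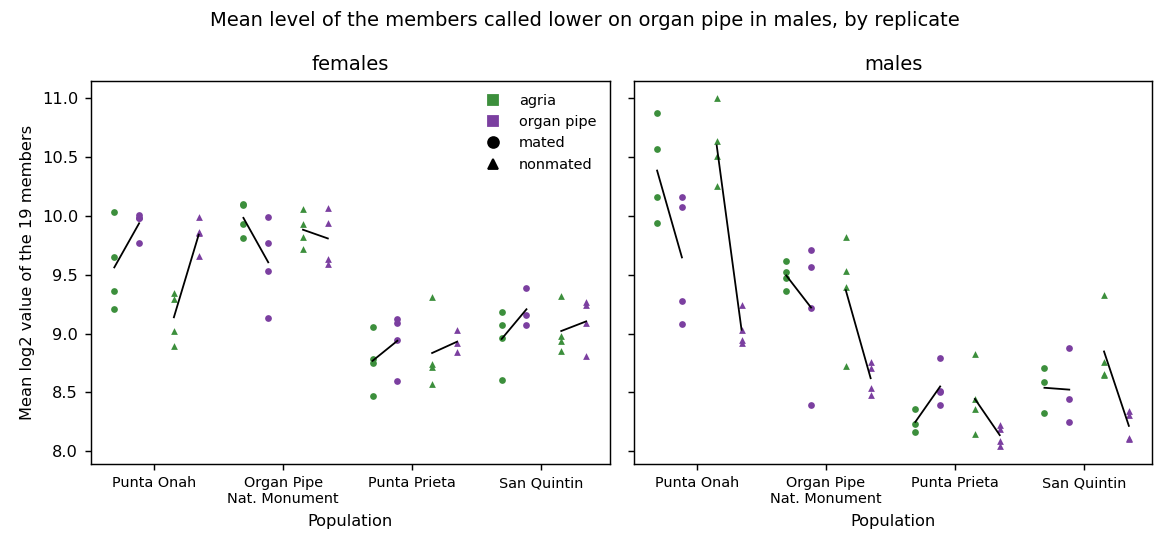
Mean log2 level of the 19 members called lower on organ pipe in males, in every replicate, by population, host, mating status and sex. Punta Onah males on agria reach 11.00, nonmated Punta Onah males on organ pipe lie between 8.92 and 9.24, and Punta Onah females have the reverse order of hosts.

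By the fit the size of the region difference in males varied with host for part of the members. The male region difference is what the rule used, and 1 high mainland group on 1 host can bring a member in, which limits this test. The host difference was more positive in Baja California than on the mainland for 17 members and more negative for 5, where 12.4% and 8.54% of all transcripts passed. FBtr0165626 had a difference of 1.27 ± 0.18 (adjusted p 6.81e-07) and FBtr0165505 one of 0.98 ± 0.15 (1.33e-06). FBtr0170638 (-0.69 ± 0.21, 0.0142) and FBtr0172324 (-1.07 ± 0.33, 0.0150) went the other way, and were at -0.12 and -0.27 without Punta Onah. Both missed the limit without replicate 1 (adjusted p 0.13 and 0.27) and without replicate 3 (0.13 and 0.088). FBtr0170638 also missed it without replicate 2 (0.060). Without Punta Onah 9 members were called, 5 more positive and 4 more negative, of which 6 were among the 22. The count was 13, 14 and 13 without replicates 1, 2 and 3.

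Split by host, the 19 members had a median region difference in males of -1.52 on agria and -0.67 on organ pipe, and the other 41 had -0.67 and -0.92. The 19 were chosen by their host difference in males, so this contrast with the other 41 is a description. The median over all 60 was -0.83 on each host, and no member was at or above 0 on either. In females limma called 0 members for this interaction, with 9 (15%) at an unadjusted p under 0.05 against 10.9% of all transcripts, where 0.0826% of all transcripts were more positive and 0% more negative. FBtr0162622 came closest (1.89 ± 0.48, adjusted p 0.101). It read 10.36, 11.06, 10.93 and 9.68 in mated Organ Pipe National Monument females on agria and 7.59, 7.96, 7.60 and 8.90 on organ pipe, with no overlap.

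Mating status was compared as mated minus nonmated, averaged over populations and hosts. As for host, a member can enter through 1 high mainland group of 1 mating state, which limits every mating test below. In females 1 member was higher in mated flies (3.21% of all transcripts) and 1 lower (5.36%): FBtr0163979 by 0.29 ± 0.09 (limma adjusted p 0.0384) and FBtr0173351 by -0.28 ± 0.07 (0.00589). The first was at 0.16 (adjusted p 0.27) without replicate 1, which holds the low Punta Prieta replicate, and also missed the limit without replicate 2 (0.061) and replicate 4 (0.14). The second missed it without replicate 2 (0.12). In males 4 were higher in mated flies (6.44%) and 0 lower (1.5%), a share of the members (6.67%) near that of all transcripts (7.94%). FBtr0166936 rose by 0.37 ± 0.08 (8.40e-04) and FBtr0172275 by 0.39 ± 0.12 (0.0217). The former missed the limit without replicate 1 (0.065), the latter without replicate 1 (0.17), 2 (0.10) or 4 (0.054). The male count was 1 without replicate 1 and 2 without replicate 3, and without Punta Onah 0 members passed in either sex.

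In Organ Pipe National Monument females 9 members were lower when mated (8.94% of all transcripts) and 0 higher (3.27%), or 15% of members against 12.2% of all transcripts in both directions. FBtr0175450 fell by 0.90 ± 0.15 (adjusted p 7.46e-06), from 12.21, 12.87, 12.24 and 12.57 to 11.11, 11.06, 11.37 and 12.11 on agria and from 12.79, 12.85, 12.49 and 12.03 to 11.57, 11.69, 12.05 and 11.89 on organ pipe. FBtr0174268 fell by 0.82 ± 0.16 (6.83e-05), from a mean of 11.29 ± 0.33 to 10.44 ± 0.39 on agria and from 11.46 ± 0.30 to 10.66 ± 0.24 on organ pipe (SD, n = 4 each). In both, the means were lower in mated females on each host. For FBtr0175450 mated females of this stock averaged 11.61 and nonmated ones 12.51, against 11.54 ± 0.47 in Baja California females (SD, n = 30). This stock's part of its region difference thus came mainly from nonmated females, and the mating test reuses them. Without replicate 2 the count was 2. Limma called 0 members for mating in Punta Onah, Punta Prieta and San Quintin females, where 0.895% of all transcripts were higher and 0.372% lower, 0.289% and 0.0619%, and 2.04% and 0.275%. There 8, 5 and 4 members (13.3%, 8.33% and 6.67%) had an unadjusted p under 0.05, against 7.78%, 11% and 11.7% of all transcripts.

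In Punta Onah males 5 members were higher (4.3%) and 6 lower (2.48%) when mated. FBtr0165626 rose by 0.77 ± 0.18 (adjusted p 0.00198) and FBtr0166454 by 0.93 ± 0.24 (0.00965; 0.28 without replicate 1). FBtr0170638 fell by 1.30 ± 0.20 (3.03e-06) and FBtr0172324 by 1.31 ± 0.32 (0.00508). In nonmated males on organ pipe their region differences were -1.62 and -2.84. The other male strata had -0.42, -0.04 and -0.22 for FBtr0170638 and -0.76, -0.48 and -0.55 for FBtr0172324. High nonmated males on organ pipe thus helped to bring both members in, and these p-values reuse them. FBtr0170638 read 11.51, 11.63, 11.67 and 11.90 in nonmated males on organ pipe and between 9.10 and 10.66 in the other Punta Onah male replicates, and its mated minus nonmated difference was larger on organ pipe. The count was 5 without replicate 1, 5 without replicate 2 and 7 without replicate 3. In Organ Pipe National Monument males FBtr0166936 alone rose (0.61 ± 0.16, adjusted p 0.0197; 0.44 without replicate 1 and 0.093 without replicate 2), where 2.83% of transcripts rose and 0.585% fell. Limma called 0 members in Punta Prieta and San Quintin males, where 1.05% of transcripts were higher and 0.0895% lower, and 2.53% and 0.179%. There 8 (13.3%) and 0 had an unadjusted p under 0.05, against 12.5% and 15.9% of all transcripts.

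The mating difference varied with region in females for 5 members, 4 more positive in Baja California (3.77% of all transcripts) and 1 more negative (0.303%). FBtr0175450 differed by 0.73 ± 0.16 (adjusted p 0.00236) and FBtr0174268 by 0.71 ± 0.16 (0.00394), and FBtr0165898 by -0.74 ± 0.22 (0.0335). This contrast splits the female region difference that the rule used, which limits the test. For FBtr0175450 that difference was -1.27 in nonmated females on organ pipe and -0.11 in mated ones. On agria it was -0.74 in nonmated and -0.44 in mated females. None of the 5 was called without replicate 1 or without replicate 3. Without Punta Onah 12 were called, including all 5. In males limma called 0 members (0.95% and 1.38% of all transcripts), with 16 (26.7%) at an unadjusted p under 0.05 against 18.1% of all transcripts, and FBtr0162495 came closest (-0.52 ± 0.16, 0.0558).

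Among the 4 populations the mating difference varied in 6 members in females (5.56% of all transcripts), with ranges of 1.15 for FBtr0175450 (adjusted p 9.25e-04) and 1.02 for FBtr0174268 (0.00441), and in 2 in males (1.98%), with 1.58 for FBtr0170638 (4.97e-04) and 1.98 for FBtr0172324 (0.0449). The limit that the rule sets on the mating tests holds here too. Of the 6 in females, 0 passed without replicate 1 or 2, and without replicate 3 the count was 3. The male count was 1 without replicate 1, 2 or 3, where FBtr0172324 missed the limit (0.44, 0.13 and 0.19), and 0 without Punta Onah.

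The mating difference was more positive in males than in females for 2 members (4.87% of all transcripts) and more negative for 0 (2.79%). FBtr0166936 had 0.40 ± 0.12 (adjusted p 0.0195) and FBtr0165898 0.48 ± 0.16 (0.0389). Neither passed without replicate 1 (0.14 and 0.25), FBtr0166936 also missed the limit without replicate 2 (0.10), and FBtr0165898 without replicate 3 (0.15), without replicate 4 (0.20) and without the pair of male arrays described above (0.054).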

How the data were processed

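Total RNA of 127 samples was hybridised to single-colour NimbleGen arrays. The deposited values are expression levels that the authors made with RMA, per the submitters' processing notes, which give no version. Their log2 scale was inferred from the range of the deposited values. Background signal, scanner files and slides were not used here. The number of arrays in a group limits the precision. Arrays of a group that share a replicate number in the titles (4 pairs) were averaged. Replicate numbers were not used to pair samples in the main fit, and the labels do not say whether they do. Residuals of same-numbered samples correlated at a mean of -0.0248 in females and 0.00155 in males. The range was -0.80 to 0.78 in females and -0.77 to 0.81 in males.

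One mean per group was fitted to all 14528 transcripts with limma 3.58.1 in R 4.3.3 (91 residual degrees of freedom), contrasts weighted groups equally, and two-sided p-values were adjusted by Benjamini-Hochberg over all transcripts, with a call at an adjusted p under 0.05. Variation among populations used the moderated F test. Percentages beside counts give the share of all transcripts called. Correlations used NumPy 2.4.6 and permutation within groups. The fit was also run on simulated data with independent noise in each transcript. Residuals of the real data were correlated between transcripts, so nothing is concluded from that run.

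Members, comparisons and alternatives were chosen with earlier results of these data known. None of the identifiers matched the RefSeq gene table (ASM1815372v1, 15130 genes). Text therefore names at most 2 identifiers in each direction per comparison: the extremes for region, sex and level, and otherwise the called members with the smallest p, or the 1 closest to a call where none was called. Alternatives were other scalings, removal of the dimmest 25% of transcripts, separate use of arrays sharing a number, a replicate block, fits to one sex, array weights, a trended robust prior, and leaving out replicate numbers, 2 male arrays or, added after seeing the data, Punta Onah.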

Additional observations from a re-analysis of the deposited data

Results flagged for a closer look

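The mean level of the 60 members set 1 replicate apart from its companions in 2 of the 27 groups of 4 that were examined, by Dixon's criterion, which marks about 1 group in 20 by chance. Replicate 4 of nonmated Organ Pipe National Monument males on organ pipe had a mean of 9.92, against 10.33, 10.33 and 10.35. Replicate 2 of mated Punta Prieta males on organ pipe had 9.86 (9.855), against 9.58, 9.60 and 9.58.

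Several members had effects that differed between groups. The region difference of males minus that of females was -0.77 for FBtr0171700, -0.72 for FBtr0172275, 0.98 for FBtr0162622 and 0.82 for FBtr0164865. These carry no test here, since the rule used both contrasts.

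By tests of the difference itself, the host difference of males was lower than that of females by 1.12 on the log2 scale for FBtr0161422 (-1.12) and by 0.66 for FBtr0165505 (-0.66), and in males it differed between regions by 1.27 for FBtr0165626, 0.98 for FBtr0165505, -0.69 for FBtr0170638 and -1.07 for FBtr0172324. Among populations the host difference ranged over 1.19 for FBtr0166936 and 2.07 for FBtr0169031 in females. In males it ranged over 1.65 (1.645) for FBtr0165505 and 1.88 for FBtr0165626. Without Punta Onah the differences between regions of FBtr0170638 and FBtr0172324 were -0.12 and -0.27. Those between the sexes were then -0.57 for FBtr0161422 and -0.23 for FBtr0165505, and neither was called.

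The mating difference in females differed between regions by 0.73 for FBtr0175450, 0.71 for FBtr0174268 and -0.74 for FBtr0165898. It ranged among populations over 1.15 for FBtr0175450 and 1.02 for FBtr0174268 in females and over 1.58 for FBtr0170638 and 1.98 for FBtr0172324 in males. In males it exceeded that in females by 0.40 for FBtr0166936 and 0.48 for FBtr0165898. None of the named mating differences between regions was called without replicate 1 or without replicate 3. Neither of those between the sexes was called without replicate 1. What lies behind these differences was not tested. A member can enter through 1 high mainland group, so the rule limits the host and mating tests of this section.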

How the results depend on the processing

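Counts of members called stayed within 1.5 times for 327 of 423 recomputed counts. These include comparisons that the rule used (region, pairs of stocks, sex, and region by sex). The share is therefore no measure of how stable the other comparisons were. Without the dimmest 25% of transcripts, which takes away 22 members, the counts were 38 for region in each sex, 38, 32, 34 and 28 for the female pairs of stocks and 31, 34, 31 and 37 for the male pairs (Punta Prieta against Punta Onah and Organ Pipe National Monument, then San Quintin), 8 and 24 for the mainland in females and males, 7 for host in males, 1 for mating in each sex, 11 for region by host in males, 34 for sex, 8 for region by sex, 6 for sex by host, 0 for sex by mating, and 7 and 20 for host by population in females and males, and 38 of the 60 stayed chosen. With array weights, whose estimation stopped before convergence, they were 35 for the mainland, 23 for Baja California, 17 for host, 10 for mating, 5 for region by host, 9 for region by mating, 36 for host by population and 18 for mating by population in females; 14 for Baja California, 14 for mating, 4 for region by mating and 15 for mating by population in males; and 18 for sex by mating. Quantile normalization gave 4 for mating in females, 2 in males and 1 for sex by mating; arrays kept separate gave 4 for mating in females and 1 for sex by mating; the fit to one sex gave 2 for Baja California, 1 for mating and 1 for region by host in females and 1 for mating by population in males; and leaving out 2 male arrays gave 1 for sex by mating. Without Punta Onah the counts were 0 for mating in females, 12 for region by mating in females, 2 for host, 0 for mating, 9 for region by host, 6 for host by population and 0 for mating by population in males, 3 for region by sex, 0 for sex by host, 0 for sex by mating and 5 for host by population in females. FBtr0172428 then reversed to 0.35 in females and 0.82 in males, and the region by sex difference of FBtr0172275 to 0.018. Recomputed without Punta Onah or Organ Pipe National Monument, the rule kept 34 and 39 members.

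Without each replicate number in turn, counts in females ranged from 9 to 15 for the mainland, 0 to 7 for Baja California, 0 to 4 for mating, 0 to 7 for region by mating, 1 to 8 for host by population and 0 to 5 for mating by population. In males they ranged from 2 to 5 for Baja California, 7 to 16 for host, 1 to 3 for mating, 13 to 21 for region by host, 0 to 2 for region by mating, 23 to 42 for host by population and 1 to 3 for mating by population; for sex by host they ranged from 4 to 14 and for sex by mating from 0 to 1. With the replicate number as a block no count moved by over 1.5 times (mating in males gave 6 in place of 4, host in males 19 as before) and none of 112 named results changed its call. What same-numbered samples share besides the number is not given in the labels. Apart from the removal of dim members, the cause of these changes was not tested. Without background signals, the dimmest members' differences may be limited by the floor of the arrays.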

Other observations

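Transcript identifiers are numbered, and 10 members had another member within 10 numbers, forming 6 pairs. Within groups the residuals of these pairs correlated at r of 0.116 to 0.629. The pairs were picked out after the values were seen, and the labels do not say what the numbering reflects. FBtr0162495 and FBtr0162496 were 1 number apart, with r of 0.392 over 123 replicates.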
